A study of Ovis aries with 3 samples.

Results

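Nitrogen and sulfur metabolism were followed through 3 transcripts of the sheep intestine, XM_012184180.1, XM_012145088.1 and XM_004015302.2, which are 3 of the 83089 transcripts in the files and hold 51 of the 314983 distinct exons. The members were taken as every exon row that starts with 1 of these identifiers. The study places XM_012184180.1 and XM_012145088.1 under nitrogen metabolism and XM_004015302.2 under sulfur metabolism. They were selected on measured values of these same libraries, because the pathway lists were drawn from transcripts that differed between intestinal regions and the 3 identifiers were picked with those differences known. Their levels and ratios between regions are therefore given as a description, without a test. None of the 3 identifiers is paired with a gene symbol in the sources used here, so each is called by its identifier.

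From 3 ewes of the small-tailed Han breed, aged 11 months, mucosal epithelium was taken from duodenum, cecum and the proximal portion of the colon. Its total RNA was pooled over the ewes into 1 library per region and sequenced in paired reads of 100 bp, with no treatment named for any group. There is no replicate of any region, so the spread between animals is unknown and every interval below is an exact 95% interval that covers counting error only. Each exon has a deposited RPKM, the number of its reads scaled by its length and by the library's read total, and the RPKM of a transcript was computed from its summed reads and summed exon length.

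Nitrogen metabolism joins the enzymes that fix free ammonia into glutamate, glutamine and carbamoyl phosphate with the carbonic anhydrases, which interconvert carbon dioxide and bicarbonate. Carbamoyl phosphate then enters the urea cycle and the synthesis of citrulline and arginine, which in many mammals takes place partly in the small intestinal epithelium. Sulfur metabolism covers the activation and recycling of sulfate and the oxidation of sulfide, a gas that bacteria of the large intestine release and that the epithelium oxidizes.

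The 3 members had 3 different patterns over the regions. XM_012184180.1 was nearly absent from the duodenum and abundant in the cecum, with an intermediate level in the colon. XM_012145088.1 was abundant in the duodenum and nearly absent from both large intestinal regions. XM_004015302.2 was abundant in every region and higher in the cecum and the colon than in the duodenum.

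**Figure D1:**
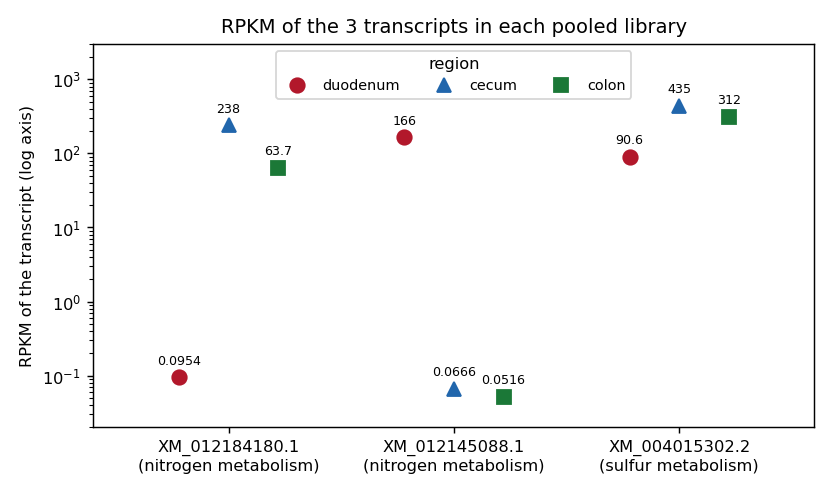
RPKM of the 3 transcripts (log axis) in the duodenum (circles), cecum (triangles) and colon (squares), 1 pooled library per region with no error bars because there are no replicates. XM_012145088.1 runs opposite to the other transcripts, at 166 in the duodenum against 0.0666 and 0.0516, and XM_004015302.2 spans the narrowest range, from 90.6 to 435.

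A transcript was counted as higher in a region when its RPKM there was at least 2 times that of the other region, among the 58311 transcripts that reached RPKM 1 in any region. All 3 members passed this filter, XM_012145088.1 through the duodenum alone. Against the duodenum, XM_012184180.1 and XM_004015302.2 were higher in the cecum, as were 11.7% of all transcripts tested, and XM_012145088.1 was lower, as were 6.42%. The same members were higher and lower in the colon, where the shares over all transcripts were 9.53% higher and 7.03% lower. Between the large intestinal regions XM_012184180.1 alone of the members passed the fold, being higher in the cecum with 3.17% of all transcripts, while 3.35% were higher in the colon. These fold differences are what the members were selected on, so nothing is read from the counts. The duodenum library enters both comparisons with the large intestine, which are therefore not independent.

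XM_012184180.1 has 5 exons with 1130 bases in all, between positions 89757724 and 89764644 of a chromosome that the files do not name, and it shares no exon with another transcript. It held 5.48 reads in duodenum, 12475.56 in cecum and 3872.16 in colon, estimated read numbers that need not be whole. Its RPKM was 0.0954 in duodenum, 238 in cecum and 63.7 in colon. The cecum was thus highest, the colon next and the duodenum close to the limit of detection, for which 3 reads were taken. On the log2 scale XM_012184180.1 was 11.29 higher in the cecum than in the duodenum (interval 10.20 to 13.04) and 9.38 higher in the colon than in the duodenum (8.29 to 11.14). With 5.48 reads under the duodenal value, the size of both ratios is known only within these wide intervals. The cecum to colon ratio of XM_012184180.1 rests on 12475.56 against 3872.16 reads and was 3.74-fold (3.61 to 3.88).

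The exons of XM_012184180.1 gave the same order of regions as the whole transcript. In the cecum all 5 exons were listed, with RPKM values of 172, 405, 841, 505 and 110 from exon 1 to exon 5. In the colon the same exons stood at 34.4, 118, 200, 126 and 34.4. The middle exon was highest and the outer exons lowest in both regions. Every exon of XM_012184180.1 was higher in the cecum than in the colon, from 3.20-fold in exon 5 to 5.00-fold in exon 1, with a median of 4.02-fold, and 5 of 5 passed the fold of 2. In the duodenum exons 1 and 2 had less than 1 read and were not listed, while exon 3 had 2 reads, exon 4 had 2.48 and exon 5 had 1. Exon 5 in the duodenum was listed as covered over 99.71% of its 690 bases by that 1 read.

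Measured against all transcripts, XM_012184180.1 was among the transcripts with the largest differences. Of the transcripts tested, 0.060% had a cecum to duodenum ratio at least as high, 0.201% a colon to duodenum ratio at least as high and 0.772% a cecum to colon ratio at least as high. By its level it stood within the upper 0.863% of all transcripts in the cecum and the upper 3.91% in the colon, but only within the upper 84.5% in the duodenum.

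**Figure D2:**
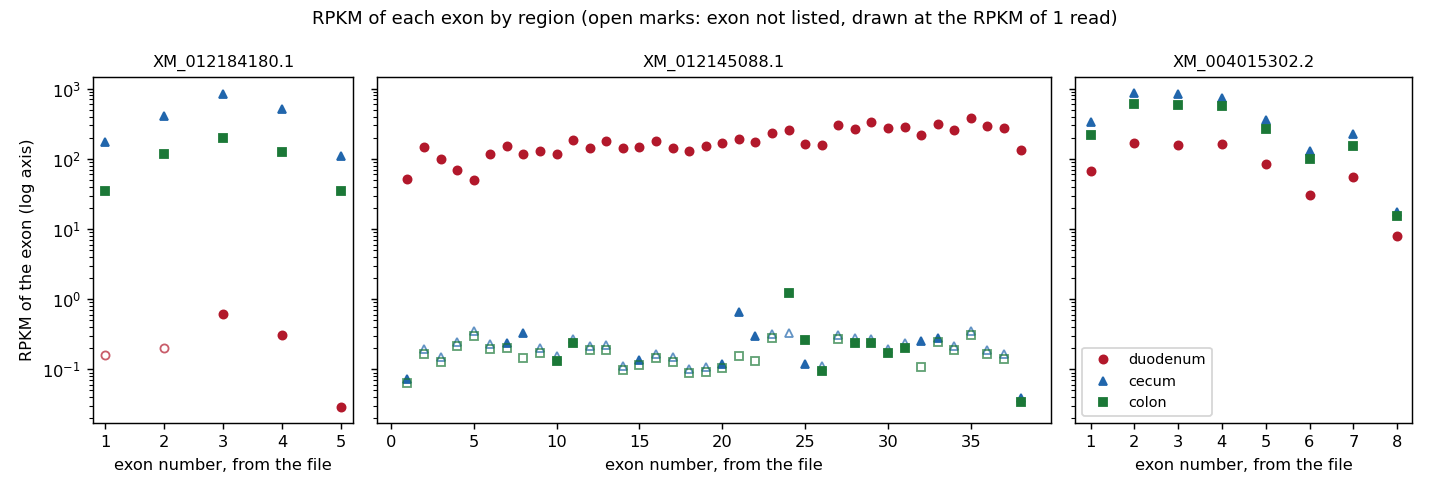
RPKM of every exon of the 3 transcripts (log axis) against the exon number, in the duodenum (circles), cecum (triangles) and colon (squares), with open marks at the RPKM of 1 read where an exon was not listed. All 38 exons of XM_012145088.1 lie at 49.3 or higher in the duodenum and none above 1.22 in the large intestine, while the 3 regions keep 1 order in all exons of XM_004015302.2.

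XM_012145088.1 is the longest member, with 38 exons and 5709 bases in all between positions 211162017 and 211303665, a span of 141649 bases. Beside nitrogen metabolism, the study lists it under arginine biosynthesis, carbon metabolism and the biosynthesis of amino acids. It held 48047.70 reads in duodenum, 17.61 in cecum and 15.85 in colon. Its RPKM was 166 in duodenum, 0.0666 in cecum and 0.0516 in colon. The duodenum stood apart, and the large intestinal regions were both near the lowest level that can be counted. XM_012145088.1 was 2486-fold higher in the duodenum than in the cecum (1539 to 4104) and 3210-fold higher than in the colon (1958 to 5564). The cecum and the colon were not told apart for XM_012145088.1, since their log2 ratio of 0.37 has an interval from -0.67 to 1.45.

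Each of the 38 exons of XM_012145088.1 was listed in the duodenum and was higher there than in either large intestinal region. The cecum listed 11 of its exons and the colon 10. Only exon 21 in the cecum, with 3.61 reads, and exon 24 in the colon, with 4.25 reads, exceeded 3 reads. These exons were 292-fold and 213-fold higher in the duodenum, respectively. Exon 38 had 2 reads in each large intestinal region, and those of the cecum were listed as covering 97.38% of its 1105 bases. Of the transcripts tested, 0.196% had a cecum to duodenum ratio as low as that of XM_012145088.1 and 0.110% a colon to duodenum ratio as low.

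In the duodenum the exons of XM_012145088.1 were not level along the transcript. They ranged from an RPKM of 49.3 in exon 5 to 383 in exon 35, with a median of 165. The median was 141 over exons 1 to 19 and 259 over exons 20 to 38, a ratio of 1.84. Among 14085 transcripts with at least 10 exons and a duodenal RPKM of at least 10, the same ratio had a median of 1.03, and 8.81% reached the value of XM_012145088.1. Spearman's rho over its 38 exons, which share 1 library and 1 transcript, was 0.79 between exon number and RPKM and -0.43 between exon length and RPKM. The 14 exons shorter than 100 bp had a median RPKM of 247 and the 24 longer exons one of 151. The longest exon, exon 38 at the end of the numbering, fell back to 132.

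**Figure D3:**
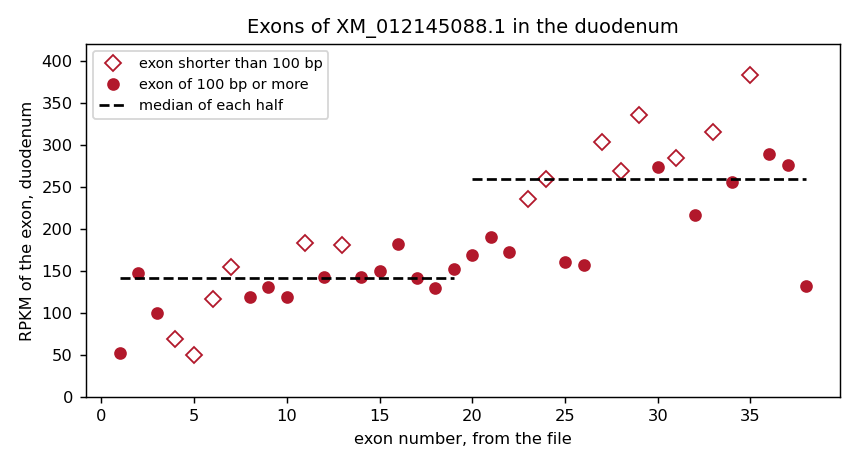
RPKM of the 38 exons of XM_012145088.1 in the duodenum (linear axis from 0) against exon number, with diamonds for exons shorter than 100 bp, circles for longer exons and dashed lines at the medians of exons 1 to 19 and 20 to 38. The line rises from 141 to 259, and the exons shorter than 100 bp lie mostly above the longer exons beyond exon 20.

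XM_012145088.1 shares 34 of its exons with XM_012149175.1, another transcript of 38 exons, so reads on those exons are carried by both. The RPKM of XM_012149175.1 was 166 in duodenum, 0.0667 in cecum and 0.0516 in colon, close to the values of the member. The 4 exons whose start and end XM_012149175.1 does not list held 9142.17 reads in duodenum, 5 in cecum and 2 in colon. These exons may still overlap exons of XM_012149175.1, whose log2 ratios over the duodenum were the same (-11.28 in cecum and -11.65 in colon). The order between duodenum and large intestine was the same on these 4 exons, but they are no separate check. Which of the transcripts carried the reads was not tested.

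XM_004015302.2 has 8 exons with 958 bases in all, between positions 50749906 and 50767947. It held 4411.37 reads in duodenum, 19311.99 in cecum and 16090.29 in colon. Its RPKM was 90.6 in duodenum, 435 in cecum and 312 in colon. Every region was well above the detection limit, with the cecum highest, the colon next and the duodenum lowest. XM_004015302.2 was 4.81-fold higher in the cecum than in the duodenum (4.65 to 4.97) and 3.44-fold higher in the colon than in the duodenum (3.33 to 3.56). The cecum exceeded the colon by 1.40-fold (1.37 to 1.42), below the fold of 2. By level XM_004015302.2 stood within the upper 2.72% of all transcripts in the duodenum, the upper 0.477% in the cecum and the upper 0.555% in the colon.

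All 8 exons of XM_004015302.2 were listed in every region and ordered the regions alike. From exon 1 to exon 8 the cecum to duodenum fold ran between 2.17 and 5.23, with a median of 4.49, and 8 of 8 exons passed the fold of 2. The colon to duodenum fold ran from 1.90 to 3.70, and 7 of 8 exons passed. No exon passed between cecum and colon, where the fold ran from 1.14 to 1.51. Exon 8 had the smallest fold in each comparison and also the lowest RPKM, at 8.04 in duodenum, 17.4 in cecum and 15.3 in colon.

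The level of XM_004015302.2 was not even over its exons. Exons 1 to 4 had a median RPKM of 160 in duodenum, 785 in cecum and 574 in colon. Exons 5 to 8 had medians of 42.6, 178 and 126 in the same order of regions, but the ranges overlap, since exon 1 (67.8, 332 and 220) lay below exon 5 (84.2, 352 and 265) in every region. A gap of 14921 bases separates exon 4 from exon 5, the widest between its exons. Exons 5 and 6 follow each other with 0 bases between them, and exons 7 and 8 are 1 base apart. XM_004015302.2 shares 4 of its exons with XM_012172853.1, whose RPKM was 90.4, 435 and 313 in duodenum, cecum and colon. The 4 exons whose start and end XM_012172853.1 does not list held 909.17, 3439.94 and 2971.81 reads, in the same order of regions as the whole transcript. Whether they overlap exons of XM_012172853.1 was not tested.

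Lists of cell type markers moved alongside the members and are given as measured levels. For small intestine enterocytes, 5 of 9 listed markers had a symbol match, and their summed RPKM was 9545 in duodenum, 970 in cecum and 417 in colon, with 5 of 5 lower by the fold in both large intestinal regions, as XM_012145088.1 was. FABP1 made up most of these sums, at 7692, 967 and 414. Each other matched marker was at 2.91 or lower in the cecum and the colon. For the large intestine, 3 of 6 matched and summed to 10.5, 61.5 and 70.2, with 3 of 3 higher than in the duodenum by the fold in both regions, as XM_012184180.1 was. Their sum was highest in the colon, whereas XM_012184180.1 was highest in the cecum. SLC26A3 (7.80, 49.5 and 53.7) made up most of the sum, and AQP8 (2.68, 8.03 and 16.2) was also highest in the colon. HOXD10, the other matched marker, was highest in the cecum like XM_012184180.1, at 0.0108, 3.93 and 0.292, with 1 read in the duodenum. Smooth muscle is a tissue that the study's description of its samples as mucosal epithelium does not name. Of its markers 4 of 5 matched and summed to 703, 3557 and 2387, with 4 of 4 higher than in the duodenum by the fold in the cecum and 3 of 4 in the colon. Over all genes with a symbol tested, 11.2% were higher and 6.53% lower in the cecum than in the duodenum, and 8.81% and 7.75% in the colon. No matched marker of these lists was at 0 in any region. The smooth muscle sum was 5.06-fold higher in the cecum and 3.40-fold higher in the colon than in the duodenum, beside 4.81 and 3.44 for XM_004015302.2. Its single markers differed, from 2.99-fold in ACTA2 to 6.92-fold in DES in the cecum. In the colon they ran from 1.64-fold in ACTA2 to 4.53-fold in DES. The fibroblast sum, with 3 of 5 markers matched, was 3.52-fold and 1.80-fold higher, and the epithelial sum, with 4 of 8, was 1.45-fold and 1.13-fold higher. The epithelial sum was carried by KRT8 (823, 1635 and 1198), while EPCAM stood at 582, 550 and 596 and KRT20 at 420.3, 448 and 257 in duodenum, cecum and colon. CDX1, the other matched epithelial marker, was at 5.34, 25.6 and 24.7 in the same order. It was thus 4.79-fold higher in the cecum and 4.62-fold higher in the colon than in the duodenum. The part of these cell types in the level of any member was not tested, and in bulk tissue fewer cells of a type cannot be told apart from less RNA per cell.

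**Figure D4:**
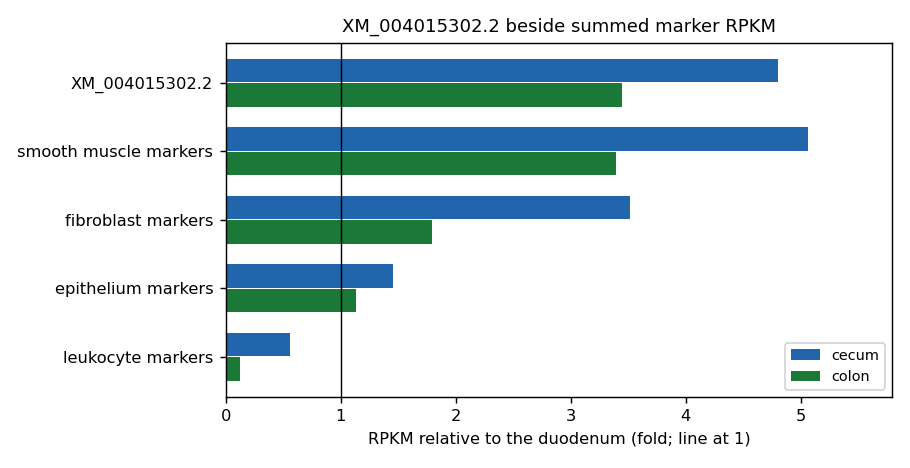
RPKM of XM_004015302.2 and summed RPKM of the matched markers of 4 cell types, as a fold over the duodenum (linear axis from 0, line at 1), for the cecum and the colon, 1 pooled library each. XM_004015302.2 and the smooth muscle sum have similar folds (4.81 and 5.06 in the cecum, 3.44 and 3.40 in the colon). Single smooth muscle markers, not drawn, range from 2.99 to 6.92 in the cecum and from 1.64 to 4.53 in the colon. The epithelium markers stand at 1.45 and 1.13 and the leukocyte markers, mostly JCHAIN, lie to the left of the line.

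The genes with the most similar pattern were sought among 3002 gene loci with a symbol and RPKM of at least 10 in a region, by the distance between log2 ratios of cecum and colon over duodenum across the 3 libraries. For XM_012184180.1 these were GPR15LG, a ligand of a receptor on lymphocytes, at a distance of 1.05, HOXA9, a homeobox transcription factor, at 1.57, and LOC101108654 at 2.83. For XM_012145088.1 they were FABP2, the intestinal fatty acid binding protein, at 0.28, APOC3, an apolipoprotein, at 1.18, and APOA4, an apolipoprotein of chylomicrons, at 1.48. The RPKM of the FABP2 locus was 1102 in duodenum, 0.369 in cecum and 0.368 in colon. For XM_004015302.2 they were ACTG2, the smooth muscle gamma actin, at 0.08, ACTA1, an actin of skeletal muscle, at 0.11, and ADAMDEC1, a secreted metalloprotease, at 0.13. The RPKM of ACTG2 was 317, 1452 and 1129 in duodenum, cecum and colon, and that of ADAMDEC1 was 195, 1018 and 698. ACTG2 and ADAMDEC1 thus had the order of regions of XM_004015302.2, with the cecum highest. Near-identical actins can exchange reads, so the ACTA1 value is uncertain. The distances of XM_012184180.1 rest on 5.48 reads in the duodenum, and those of XM_012145088.1 on 17.61 in the cecum and 15.85 in the colon. Distances and ranks of these members therefore carry wide counting error.

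The study's own pathway lists give the company of the members. It drew these lists from transcripts that differed both in these samples and in Texel sheep, whose libraries are not analysed here, so they are no independent evidence of direction, and they were matched to the files by identifier after the values were seen. Of 12 identifiers under nitrogen metabolism, 6 were in the files, from 5 gene loci, including both nitrogen members. Of the 6, 5 were higher by the fold in the cecum and the colon than in the duodenum, and XM_012145088.1 was the exception. Over all transcripts tested, 11.7% were higher and 6.42% lower in the cecum than in the duodenum, and 9.53% and 7.03% in the colon. The same shares apply to the counts of the study's other lists below. XM_012186664.1 was most like XM_012184180.1 against the duodenum, at an RPKM of 0.330 in duodenum, 178 in cecum and 252 in colon. It differed in the order of cecum and colon, since the colon was higher in XM_012186664.1 and the cecum in XM_012184180.1. CA12, a carbonic anhydrase of the cell surface listed as XM_012181394.1, was at 0.0484, 9.59 and 36.9, and XM_012181395.1 of the same locus at 0.0346, 2.29 and 8.81. XM_004013848.2 was at 14.9, 65.7 and 79.1. The 6 had median log2 ratios of 6.84 (cecum to duodenum), 8.69 (colon to duodenum) and -0.39 (cecum to colon), beside 0.06, 0.00 and 0.08 over all transcripts tested.

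**Figure D5:**
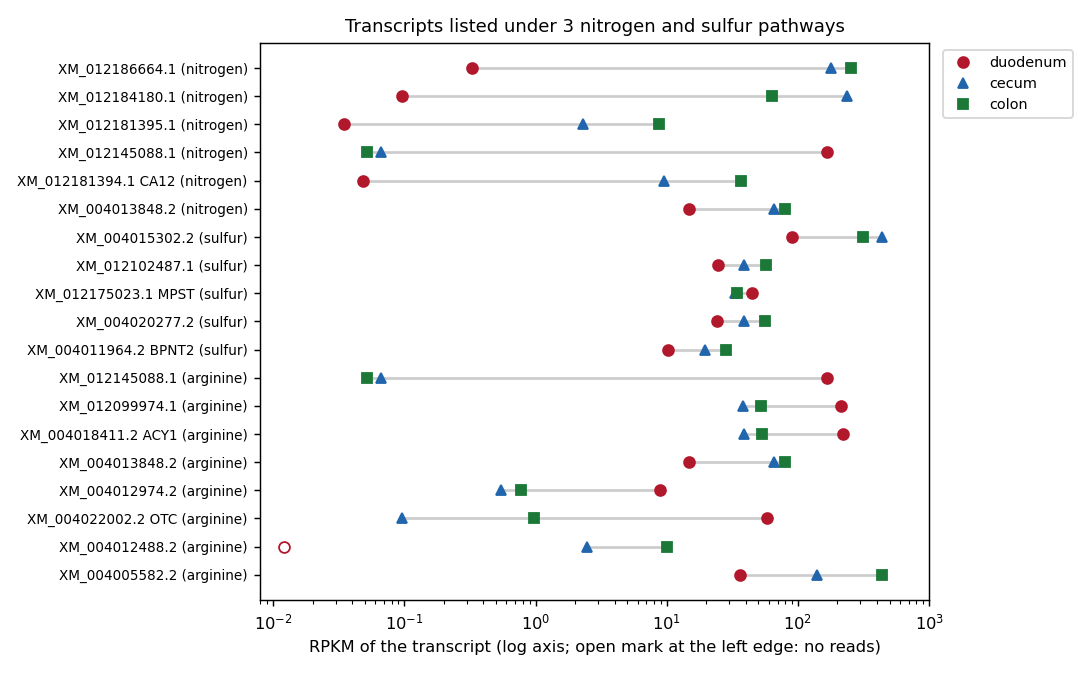
RPKM (log axis) of the transcripts in the files that the study lists under nitrogen metabolism, sulfur metabolism or arginine biosynthesis, in the duodenum (circles), cecum (triangles) and colon (squares), with grey lines joining the lowest and highest value and an open mark for no reads. XM_012145088.1 and OTC have the duodenum far to the right, at 166 and 58.4, whereas XM_012184180.1, XM_012186664.1 and CA12 have it far to the left, at 0.0954, 0.330 and 0.0484.

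Under arginine biosynthesis 8 of 9 identifiers were in the files, from 7 loci. Against the duodenum 3 were higher and 5 lower in both large intestinal regions, with median log2 ratios of -2.49 (cecum) and -2.03 (colon). OTC, ornithine transcarbamylase, which joins carbamoyl phosphate and ornithine to citrulline, was nearest to XM_012145088.1, at 58.4 in duodenum, 0.0958 in cecum and 0.980 in colon. OTC was 10.2-fold higher in the colon than in the cecum, on the log2 scale -3.36 (-4.39 to -2.56) for cecum over colon, whose interval does not overlap that of XM_012145088.1. XM_004012974.2 was at 8.93, 0.547 and 0.776 in duodenum, cecum and colon, and ACY1, an aminoacylase, at 219, 39.0 and 53.6. XM_004012488.2 ran the other way, with no reads in the duodenum and RPKM values of 2.45 and 10.01 in cecum and colon. XM_004005582.2, listed as the argininosuccinate synthase ASS1, was likewise lowest in the duodenum, at 36.0, 139 and 438.

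Under sulfur metabolism 5 of 6 identifiers were in the files, from 4 loci, and XM_004015302.2 had the highest RPKM of them in every region. It was the only listed transcript past the fold in the cecum, while 4 of 5 passed it in the colon. XM_012102487.1 was at 24.6 in duodenum, 39.1 in cecum and 56.7 in colon, and XM_004020277.2 of the same locus at 24.3, 38.7 and 56.0. BPNT2, a phosphatase that breaks down phosphoadenosine phosphate in the Golgi, was at 10.2, 19.5 and 28.4. MPST, a mercaptopyruvate sulfurtransferase, was at 45.0, 33.1 and 34.1 and did not pass the fold. Apart from MPST, where cecum and colon differed by less than counting error, the colon exceeded the cecum in the other listed transcripts, whereas the cecum exceeded the colon in XM_004015302.2.

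Genes of 7 related lists were looked up by symbol, which reached 39 of 88 symbols and none of the members. Among 5823 genes with a symbol that reached RPKM 1 in any region, 11.2% were higher in the cecum than in the duodenum by the fold and 6.53% lower, 8.81% were higher in the colon than in the duodenum and 7.75% lower, and 3.73% were higher in the cecum than in the colon and 2.89% lower. Of the sulfur list 8 of 11 genes were measured, of which 2 were higher in the cecum, 3 in the colon and none lower. SELENBP1, a methanethiol oxidase that releases sulfide, was at 31.8 in duodenum, 767 in cecum and 460 in colon. SQOR, the mitochondrial sulfide quinone oxidoreductase, was at 104, 251 and 214. SELENBP1 and SQOR had the order of regions of XM_004015302.2, the cecum above the colon above the duodenum.

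Of the nitrogen list 3 of 16 genes were measured. Beside CA12, GLUD1, the mitochondrial glutamate dehydrogenase, was at an RPKM of 110 in duodenum, 63.2 in cecum and 52.3 in colon, lower by the fold in the colon alone and far from the range of XM_012145088.1. Of the urea cycle list 5 of 14 genes were matched and 4 had RPKM of at least 1, of which 2 were lower in both large intestinal regions and none higher. These were OTC and SLC25A15, the mitochondrial ornithine carrier, at 52.8, 12.8 and 12.3. OTC and SLC25A15 thus shared the direction of XM_012145088.1, with a smaller ratio in SLC25A15. ASS1 is also on this list but had no symbol match, so these counts leave it out. XM_004005582.2, listed as ASS1, went the other way, at 36.0, 139 and 438.

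The remaining lists were mixed. For sulfate transport and transfer 6 of 18 genes were measured, with 3 higher and 1 lower in each large intestinal region. SLC13A1, a sulfate cotransporter, was at 0.609, 5.12 and 21.9 in duodenum, cecum and colon, CHST4, a carbohydrate sulfotransferase, at 14.7, 32.0 and 68.7, and SULT2B1, a sterol sulfotransferase, at 4.48, 13.8 and 18.5. In all of them the colon was highest, unlike in XM_004015302.2. Of the sulfur amino acid enzymes 5 of 10 were measured and GSS, glutathione synthetase, was the only one past the fold, at 21.6, 9.64 and 8.73, while MAT2A, which makes S-adenosylmethionine, was the highest at 94.9, 106 and 109. For ammonia and urea transport 3 of 7 matched genes had RPKM of at least 1, with 2 higher and 1 lower in each large intestinal region, among them the water and ammonia channel AQP8 at 2.68, 8.03 and 16.2. From the list of bicarbonate and proton transport, the chloride and bicarbonate exchanger SLC26A3 was at 7.80, 49.5 and 53.7 and the anion channel CFTR at 8.53, 26.7 and 15.0. CFTR passed the fold in the cecum but not in the colon. Not every gene of this list is shown, so no direction of the list is read from these values.

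The libraries were close in depth, with 64368455 to 74984599 reads summed over distinct exons. The 10 transcripts with the most reads, counting only 1 transcript per locus, took from 4.46% to 10.9% of the reads, with the highest share in the colon. The median log2 ratio over all transcripts stayed within 0.08 of 0. These sums exceeded the read total given in the files by 1.35 to 1.39 times, so some reads were counted on more than 1 exon and the intervals above are too narrow. A floor of 3 reads corresponds to a share of a library between 5.57e-06% and 6.48e-06%.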

How the data were processed

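Mucosal epithelium RNA of 3 regions (1 pooled library each) was grouped by the tissue label. Per the study's methods, the authors mapped and assigned the reads with Bowtie2 and RSEM; the submitters' processing notes name BWA and Bowtie 0.12.2, and the files name no build. For each exon the authors deposited an estimated count of reads (expected count, 87.8% to 88.3% not whole). The authors also deposited the RPKM of each exon, scaled to the read total in the header, and the percent of its length covered. Exons with less than 1 read are not listed.

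Reads and lengths were summed over the exons of a transcript listed in any region, and RPKM was recomputed with the header total. On the log2 scale 0 was replaced by 0.001. Exact 95% Clopper-Pearson intervals used rounded reads. No test was run, since 1 library per region leaves no replicate error. The calculation was tested on simulated data with seed 1. The authors' Audic-Claverie test, which compares libraries only, served as an alternative beside other exon choices, offsets, filters, folds and rescalings. Symbols were matched by accession for 8735 transcripts (7047 symbols) to the RefSeq table of ARS-UI_Ramb_v3.0, used for names only. Transcripts joined by shared exons formed 28601 loci.

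The members and lists were chosen with earlier results of these data known. Named are the 3 members, list genes with RPKM of at least 10 and a fold of 2 against the duodenum or the highest RPKM of the list, and the 3 loci nearest to each member. Some other marker genes are named to show what a marker sum rests on. A gene that this rule names is not reported here. Of the marker lists, leukocytes (5 of 6 matched) summed to an RPKM of 6799, 3796 and 812 in duodenum, cecum and colon, goblet and gland cells (3 of 6) to 5431, 10322 and 151956, pancreas and liver (3 of 5) to 1.25, 0.0221 and 0.490, and erythrocytes (1 of 4, SLC4A1) to 0, 0 and 0.271. The goblet and gland sum in the colon was mostly TFF2 (1470, 2060 and 127220). SPINK4 was at 844, 4905 and 21237, while TFF3 changed little, at 3117, 3357 and 3499. Scripts ran on Python 3.11.15 (scipy 1.17.1, pandas 2.3.3, matplotlib 3.10.9, numpy 2.4.6).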

Additional observations from a re-analysis of the deposited data

Results flagged for a closer look

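The deposited percent of each exon covered by reads entered no comparison. Taking 2 reads of 100 bp as the most that a counted read pair can cover, 2.70% of the listed exons in duodenum, 2.81% in cecum and 2.64% in colon were covered over more bases than their reads allow. Among exons with 1 read this share was 16.8%, 19.0% and 17.8%. In the members it touched exon 5 of XM_012184180.1 in the duodenum, with 1 read and 99.71% of 690 bases covered. It also touched exon 38 of XM_012145088.1, with 2 reads and 97.38% of 1105 bases covered in the cecum and 2 reads and 36.65% in the colon. These are exons in the regions where the transcript was nearly absent, so the lowest member values rest on reads whose number and coverage differ. No exon of XM_004015302.2 was affected, and the cause was not tested.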

How the results depend on the processing

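No member ratio changed direction under any alternative run. For XM_012184180.1 the log2 ratio of cecum over duodenum (11.29) was 13.77 by the median exon and 7.77 with 1 added to RPKM. That of colon over duodenum (9.38) was 11.99 and 5.88. Its ratio of cecum over colon (1.90) was 1.78 by the median exon, 1.68 by the longest, 2.07 by the highest and 1.97 without the first and last exon. It was 1.84 after median-ratio rescaling and 1.80 when rescaled without the 10 transcripts with the most reads, counting 1 per locus. For XM_012145088.1 cecum over duodenum (-11.28) was -17.33 by the median exon, -18.55 by the highest exon, -7.29 with 1 and -9.96 with 0.1 added, and colon over duodenum (-11.65) was -17.33, -18.55, -7.31 and -10.09. The median and highest exon of XM_012145088.1 had no reads in the large intestine, so those values are set by the 0.001 in place of 0. Its cecum over colon ratio (0.37) was 1.54 on its own exons, those whose start and end no other transcript lists. The median and the highest exon gave no value for it, as neither had reads in either region. For XM_004015302.2 cecum over duodenum (2.26) was 2.17 by the median exon, 2.39 by the highest, 2.05 on its own exons and 2.21 after median-ratio rescaling; colon over duodenum (1.78) was 1.67 by the median exon, 1.70 by the longest, 1.88 by the highest, 1.63 on its own exons and 1.86 without the top 10; cecum over colon (0.48) was 0.59 by the longest exon, 0.43 on its own exons, 0.41 after median-ratio rescaling and 0.38 without the top 10. The other 47 member values stayed within counting error.

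Counts of transcripts past the fold are given as higher in cecum and duodenum, then colon and duodenum, then cecum and colon. They were 6833 and 3742, 5556 and 4102, and 1850 and 1952 as reported. They became 13738 and 9805, 12607 and 9920, and 7039 and 7944 without a filter, 2552 and 1663, 2203 and 1905, and 516 and 713 at RPKM of at least 10, 1731 and 1565, 1804 and 1573, and 402 and 794 at a fold of 4, and 1898 and 1151, 1555 and 1247, and 573 and 587 over gene loci. With 1 added, 4026 were higher in cecum and 3364 in colon than in duodenum, and 686 and 1005 between cecum and colon. Genes of the 7 lists past the fold in either direction numbered 16, 17 and 7 in the 3 comparisons. At a fold of 4 they numbered 8 for cecum against duodenum and 4 for cecum against colon. The lists had 39 matched symbols before the filter of RPKM 1. Over all genes with a symbol tested, 11.2% and 6.53%, 8.81% and 7.75%, and 3.73% and 2.89% passed the fold of 2, in the order of the transcript counts. The lists were chosen with earlier results known, so nothing is read from these counts. The Audic-Claverie test and median-ratio rescaling moved no count by over 1.5 times.

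No paired analysis was possible because each region is 1 pooled library and the labels give no replicate numbers. Leaving out a replicate was not run for the same reason. Depth limits XM_012184180.1 in the duodenum and XM_012145088.1 in the large intestine, which rest on 5.48 to 17.61 reads.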
